A study of Mus musculus with 115 samples.

Results

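Constructs that carried a binding motif named for an E2F factor, for MYBL2 or for GMEB2 were followed across 3 sequence contexts. The constructs were taken by name: those whose name began with E2F, and those named MYBL2 or GMEB2. This gave 10 of 275 constructs in the series. The unphased class held 6 of its 122 constructs, for E2F3, E2F4, E2F7, E2F8, MYBL2 and GMEB2. The nuc and non_nuc classes, whose construct names begin with nucleosomal and non_nucleosomal, held E2F7 and GMEB2 each, 2 of 24 constructs per class. The constructs were present in 16 of 115 libraries.

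The study inserted pools of motifs into defined sequences at 1 recombinase-mediated exchange site of mouse embryonic stem cells of strain 129S6/SvEvTac and read accessibility by amplicon NOMe-seq. All libraries compared here came from these cells, with no treatment named in their labels, and differed in the pool of constructs. NOMe-seq exposes chromatin to a methyltransferase that marks cytosines in GpC where DNA is accessible. The level at a site is the percentage of reads in which a GCH cytosine (GC followed by A, C or T) was methylated, so that a high level means open DNA; cytosines in GCG, as in a GC-rich motif, are not read. Expression was not measured, so the cell type rests on the labels.

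E2F factors bind promoters of genes for DNA replication and cell-cycle progression. E2F3 is mainly an activator, E2F4 acts mainly as a repressor with pocket proteins, and E2F7 and E2F8 are atypical family members that repress E2F targets without a DP partner. MYBL2 (B-MYB) joins the MuvB core to activate genes of late cell cycle, and is highly expressed in embryonic stem cells. GMEB2, with its relative GMEB1, binds the glucocorticoid modulatory element, a CpG-containing sequence. Many promoters bound by these factors are CpG-rich and are nucleosome-depleted when active.

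Positions are counted along each construct as in the deposited tables. The motif window lay between the shared sites at 101 and 164 in the unphased class and between those at 157 and 213 in the nuc and non_nuc classes, and spanned 28 bp in each. The flank was the sites within 40 bp on either side, which in the unphased class are those at 101, 164 and 187. Sites within the window depend on the insert, so a window level averages different positions in each construct. E2F7 had 5 window sites and GMEB2 had 2, at the same places within the window in each class, moved by 49 bp from unphased to the other contexts. The unphased class had 2 libraries per pool, and nuc and non_nuc had 3. The files give fractions with no read counts, so depth is unknown and no counting interval is given. The labels do not say that libraries came from separate cultures, so p-values measure only a spread between libraries. In many fits this was a spread shared by all constructs of the class, not that of a construct's own libraries. Median flank levels of libraries ran from 31.4% to 67.2% in the unphased class, 42.8% to 61.3% in nuc and 58.8% to 70.8% in non_nuc.

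Each construct was compared with 2 references. The pool median is the median construct of the same pool, measured in the same library. The construct without a motif stood in a pool of its own in the unphased class and in another pool than E2F7 and GMEB2 in nuc and non_nuc, so this comparison is also one between libraries. Differences were tested with limma across every construct of the class on the M-value, log2 of methylated over unmethylated share with 0.01 added to each, at a Benjamini-Hochberg adjusted p under 0.05. Over the whole amplicon the 6 unphased constructs lay between 42.7% for GMEB2 and 52.0% for MYBL2, against 48.0% ± 1.24 (SD, n = 2) without a motif. No construct of the set passed in the amplicon mean against either reference in any class. Among all constructs 28.1% of 121 passed against no motif and 11.7% of 120 against the pool median in the unphased class. In nuc 13% of 23 passed against no motif.

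The unphased amplicon rose from position 8 to 68 and closed from there to 164. Without a motif, levels were 33.1% and 41.3% at position 8, 65.5% and 68.6% at 68, 40.5% and 39.9% at 149, and 33.6% and 32.5% at 164. The window lies on the falling side.

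In the window, E2F4 and E2F8 read higher than the construct without a motif, each averaged over its own window sites. The window of the construct without a motif read 42.4% and 41.7%. The E2F4 window read 50.8% and 55.3% in its libraries, and the E2F8 window 49.5% and 50.1%. All 4 values lay above both values without a motif. E2F4 was higher by 10.9 percentage points, or 0.62 ± 0.11 (SE) on the log2 M scale (adjusted p = 0.0123), and E2F8 by 7.72 points, or 0.44 ± 0.08 (adjusted p = 0.0123). These calls stand against a class in which 48.8% of 121 constructs passed: 23.1% of the 121 were higher and 25.6% lower. The first and last E2F8 window sites lay upstream of the first and last without a motif, so higher on the slope. Relative to a straight line between the shared sites at 101 and 164, E2F8 differed from no motif by -0.80 points (adjusted p = 0.695). E2F4 differed by 5.58 points (adjusted p = 0.00374). How much of the E2F8 window difference comes from site position was not tested.

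The other E2F windows gave smaller differences from no motif. E2F3, an activator, read 50.3% and 45.3%, above both values without a motif, but its difference of 5.74 points did not pass (adjusted p = 0.0712). It passed with the window narrowed by 5 bp on each side (7.33 points, adjusted p = 0.0441). That window left the site at 141 in E2F3 and the site at 149, further down the slope, without a motif. The difference in the full window was 8.25 points without replicate 2 of the E2F3 pool and 3.24 points without replicate 1. E2F7 was the only E2F construct with window values below those without a motif, at 39.7% and 39.3% (difference -2.56 points, adjusted p = 0.166). With the narrower window E2F7 passed as lower (-4.89 points, adjusted p = 0.0381), from its sites at 141 and 149 against 149 alone. By level the windows ordered as E2F4 (53.0%, rank 7 of 122), E2F8 (49.8%, rank 19), MYBL2 (48.6%, rank 25), E2F3 (47.8%, rank 28), E2F7 (39.5%, rank 77) and GMEB2 (35.7%, rank 93). The libraries of E2F8, MYBL2 and E2F3 overlapped, so these neighbours do not differ beyond their spread.

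In the flanks, no E2F construct passed against no motif, where 38% of 121 constructs passed. The E2F4 flank read 43.4% and 50.2%, and the E2F8 flank 46.3% and 45.9%, against 41.0% and 42.8% without a motif. E2F3 read 46.0% and 40.9%, which overlapped the values without a motif, and E2F7 read 43.7% and 44.2%. With a flank of 25 bp, which leaves the site at 164 alone, E2F4 passed at 9.24 points higher (adjusted p = 0.0279) and E2F8 at 7.16 points higher (adjusted p = 0.0146).

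Within libraries, against the median construct of the pool, E2F3 was the 1 construct of the set whose higher window passed. The E2F3 window exceeded its pool median by 13.05 points in replicate 1 and 5.81 points in replicate 2, 9.43 ± 5.12 points (SD, n = 2; log2 M 0.55 ± 0.13 SE, adjusted p = 0.0154). In this comparison 26.7% of 120 constructs passed. Without replicate 1 the adjusted p was 0.128 at 5.81 points, and with the window narrowed by 5 bp on each side it was 0.141. E2F4 exceeded its pool median by 4.28 and 7.19 points (adjusted p = 0.0568), and E2F8 by 5.41 and 3.48 points (adjusted p = 0.103). Both libraries of each of these E2F constructs lay above their pool medians. E2F4 passed on the plain fraction (adjusted p = 0.0241) and with a pseudocount of 0.001 (adjusted p = 0.0401). On the plain fraction 51 constructs of the class passed in place of 32. When each construct was left out of its own pool median, the windows of E2F4 (6.93 points, adjusted p = 0.0219) and E2F8 (7.11 points, adjusted p = 0.0174) passed too. With that median 54 constructs of the class passed in place of 32.

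In the flanks none of the 5 constructs with a pool median passed, where 7.5% of 120 did. E2F8 was higher than its pool median in both libraries, by 3.98 and 4.88 points (adjusted p = 0.0935), and E2F3 by 9.04 and 2.09 points (adjusted p = 0.234). With the flank of 25 bp E2F8 passed (adjusted p = 0.0463), where 30 constructs of the class passed in place of 9. E2F4 exceeded its pool median by 1.11 and 6.18 points (adjusted p = 0.286). When each construct was left out of its own pool median, the E2F3 flank (6.97 points, adjusted p = 0.0231) and the E2F8 flank (6.58 points, adjusted p = 0.0231) passed. With that median 45 constructs of the class passed in place of 9. E2F7 was alone in its unphased pool and had no pool median.

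Because the window lies on a slope, window sites were also compared with a straight line between the shared sites at 101 and 164 of the same construct and library. E2F7 dipped below this line, and E2F4 rose above it. The E2F7 window lay at -6.54 and -6.31 points from its line, while the window without a motif lay at 0.95 and -0.43 points from its own. The difference of -6.69 points passed (adjusted p = 0.000364). The E2F4 window lay 6.87 and 4.81 points above the line, 5.58 points more than without a motif (adjusted p = 0.00374). The E2F4 call was lost with the narrower window (3.38 points, adjusted p = 0.104) and without replicate 1 of its own pool (4.55 points, adjusted p = 0.0700). E2F8 and E2F3 did not pass relative to the line, at -0.80 points (adjusted p = 0.695) and 1.84 points (adjusted p = 0.397) from no motif. In this comparison 30% of 120 constructs passed, 15% in each direction.

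The E2F7 dip was spread over 4 of its 5 window sites. The site at 149 lay at -11.5 and -9.82 points from the line and the site at 131 at -8.63 and -9.93 points. The sites at 128 and 141 lay at -7.42 ± 1.66 and -7.23 ± 0.69 points (SD, n = 2), while the site at 153 lay at 3.71 and 1.18 points. Both lowest positions also exist without a motif. At 131 the E2F7 construct read 41.4% and 38.9%, against 48.3% ± 0.86 without a motif (adjusted p = 0.0473). At 149 it read 31.3% and 33.0%, against 40.2% ± 0.46 (adjusted p = 0.0370). At 131, 41.7% of 12 constructs were lower than no motif, and at 149 34.8% of 23 were. E2F7 ranked 9 of 13 constructs from the highest at 131 and 17 of 24 at 149. With left-out libraries its differences ran from -9.40 to -6.86 points at 131 and from -8.93 to -7.23 points at 149. Among all single sites of the class, 29.3% of 1747 passed against no motif.

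Position 141 was shared by 3 E2F constructs and separated E2F7 from its relatives. E2F7 read 38.3% and 38.7% there. E2F3 read 50.2% and 44.8%, and E2F8 read 50.6% and 52.0%. E2F7 ranked 7 of the 8 constructs with this site, E2F8 ranked 2 and E2F3 ranked 3. The E2F7 libraries lay below all libraries of the other two, a difference that was not tested because the constructs were in separate pools.

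The E2F4 window sites stood above the line by unequal amounts. The site at 152 lay 12.1 and 8.08 points above, the site at 132 lay 6.39 and 6.47 points above, and the site at 147 lay at 2.15 and -0.12 points from it. In E2F3 the sites at 129, 141 and 151 lay 3.34 ± 0.44, 2.03 ± 0.66 and 0.92 ± 2.45 points above (SD, n = 2). In E2F8 the site at 148 lay at -3.70 and -3.01 points from the line, and the site at 141 at 1.21 and 3.66 points. Single sites of E2F4 beyond the window also differed from no motif. At 164, where 19.2% of 120 constructs were higher, it read 38.7% and 45.9% (9.24 points higher, adjusted p = 0.0378). At 187, where 20.0% of 120 were higher, it read 36.6% and 44.7% (9.59 points higher, adjusted p = 0.0353). Without replicate 2 of its pool these fell to 5.64 and 5.55 points (adjusted p = 0.228 and 0.223).

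Upstream of the window, most of these constructs were less open than the construct without a motif, as were many constructs of the class. Sites past the threshold between 34 and 68 numbered 6 in E2F4, 5 in E2F3 and 4 in GMEB2, all lower, and E2F8 and E2F7 had 1 each. At position 47, E2F4 read 45.5% and 51.5%, E2F3 read 54.5% and 50.4%, and GMEB2 read 54.0% and 53.5%, against 62.7% and 63.9% without a motif. At that position 52.1% of 121 constructs were lower, and at 68 53.7% were. At 50 and 53 the shares were 43.0% and 43.8%. They were smaller at 34 and 43, with 15.7% and 22.3% lower, where E2F4 passed at both and E2F3 at 34. MYBL2 had no lower site.

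The calls against no motif in the unphased class rest on its 2 libraries. All 6 flank, window and line calls and all 23 single-site calls of the set were lost when either no-motif library was left out, with adjusted p between 0.0939 and 0.378 for the former. Leaving out a library of the construct's own pool ended 13 of the 23 single-site calls. Single sites of the class passed nowhere against the pool median (0 of 1791 in limma, with 423 at an unadjusted p under 0.05).

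MYBL2 was among the most open of the unphased constructs over the amplicon, at rank 9 of 122, with levels of 50.4% and 53.5%. Its window read 45.9% and 51.4%, above both values without a motif, and the difference of 6.53 points did not pass (adjusted p = 0.0583). Without its replicate 1 it passed at 9.28 points (adjusted p = 0.0183). Within its pool it was near the median, at -1.24 and 1.83 points from it in its libraries (adjusted p = 0.970). The pool held 6 constructs, among them the motif of BANP, whose amplicon was higher than the pool median.

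The partner named MYBL2_r, a relation the labels do not define, was measured in the same libraries. Its window read 53.7% and 53.3% and its flank 48.5% and 49.5%, both above MYBL2 in each library, whose flank read 43.1% and 47.7%. The partner passed against no motif, at 11.4 points in the window (adjusted p = 0.00512) and 7.08 points in the flank (adjusted p = 0.0327). The differences between MYBL2 and its partner did not pass in level, at -4.91 points in the window (adjusted p = 0.205) and -3.61 points in the flank (adjusted p = 0.407). Among the 14 motif and partner pairs, 57.1% passed in the window and 50% in the flank, where all 7 called pairs were higher with the motif. Relative to the line, MYBL2 lay at 0.92 and 0.00097 points and MYBL2_r at 2.66 and 4.34 points, a difference of -3.04 points that passed (adjusted p = 0.0336), as did 71.4% of the 14 pairs. It was lost without either library of the pool (adjusted p = 0.0721 and 0.407) and turned to 2.16 points with the narrower window, which leaves the site at 149 alone. The 2 window sites that both constructs share read 47.3% and 51.9% in MYBL2 and 61.8% and 55.9% in MYBL2_r at 130, and 44.4% and 50.9% against 46.9% and 49.6% at 149. The partner had a further window site, 5 bp past 149, which read 52.5% and 54.4%. Over the amplicon 14.3% of the 14 pairs passed, and MYBL2 with its partner did not.

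Single sites separated MYBL2 from its partner far upstream. At position 8, MYBL2 read 51.4% and 52.8% and MYBL2_r read 28.4% and 31.3%, 22.2 points higher in MYBL2 (log2 M 1.32 ± 0.22 SE, adjusted p = 4.6e-08). MYBL2 was also higher at 34 by 13.4 points, at 22 by 11.5 points and at 53 by 9.41 points. At 101 MYBL2 was lower, with 62.4% and 61.1% against 75.0% and 70.4%, at a difference of -10.9 points (adjusted p = 0.00583). These 5 were of 16 sites tested, in a comparison where 31.1% of 209 sites passed. Without replicate 1 the calls at 22, 34, 53 and 101 were lost, with adjusted p from 0.135 to 0.271. Position 8 was also higher in MYBL2 than without a motif, where it read 33.1% and 41.3% (14.9 points, adjusted p = 0.00632), at a position where 4.20% of 119 constructs were higher.

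GMEB2 was the least open of the 6 unphased constructs. Its flank read 34.4% and 36.7%, below both values without a motif, and was lower, at -6.36 points (log2 M -0.38 ± 0.15 SE, adjusted p = 0.0431). Its window read 37.6% and 33.9% and was lower, at -6.34 points (log2 M -0.38 ± 0.11, adjusted p = 0.0372). Lower calls made up 23.1% of all constructs in the flank and 25.6% in the window. The flank call was lost without replicate 1 of its own pool (adjusted p = 0.145), and the window call without replicate 2 (adjusted p = 0.0971) or with the narrower window (adjusted p = 0.0917).

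The GMEB2 window held a low site beside a higher one. The site at 146 read 29.0% and 29.1%, at -5.21 and -5.74 points from the line, and the site at 134 read 46.3% and 38.6%, at 6.42 and -1.69 points from it. At 164, just downstream, GMEB2 read 25.7% and 26.8%, rank 101 of 121, against 33.1% ± 0.76 without a motif (adjusted p = 0.0473, 0.0687 on the plain fraction). Of 120 constructs, 17.5% were lower than no motif at this site. E2F3, in the same 2 libraries, read 41.5% and 33.6% there. Within libraries GMEB2 lay at -2.63 and -2.09 points from its pool median in the flank (adjusted p = 0.143). Its window lay at 0.34 and -5.65 points (adjusted p = 0.358). The median flank of this pool was 37.9% ± 1.31 (SD, n = 2), below the 41.9% ± 1.24 of the construct without a motif, which was measured in other libraries.

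In the nuc context the window is in a closed stretch. Without a motif, levels fell from 85.8%, 90.3% and 88.5% at position 71 to 33.3%, 23.7% and 27.9% at 189, the only window site of that construct. E2F7 read 91.3%, 83.7% and 79.6% at 71. Its window means were 33.3%, 22.5% and 29.8%, which overlapped the construct without a motif (difference 0.25 points, adjusted p = 0.962). GMEB2 read 17.8%, 25.6% and 22.9% in the window (difference -6.21 points, adjusted p = 0.193). In this comparison 26.1% of 23 constructs passed, all lower. Neither construct passed in the window or flank against the pool median, where 37.5% and 25% of 24 constructs passed. The E2F7 flank read 51.2%, 44.7% and 39.3%, against 47.0% ± 2.21 (SD, n = 3) for the pool median (adjusted p = 0.744).

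Replicate 3 of E2F7 stood apart from replicates 1 and 2 in nuc. Replicate 3 of this construct read 61.5% at position 92 and 40.6% at 148, while replicates 1 and 2 read 89.8% and 84.5% at 92 and 68.5% and 69.6% at 148. The pool median had an SD of 1.18 points over the same libraries at 92 and of 3.59 points at 148. A spread of this size was not particular to E2F7. In the flank its SD was 5.94 points, against 9.81 for ARNTL and 6.91 for SRF of the same pool. The other constructs of the pool had smaller SDs, from 0.41 for TRP53 to 5.32 for TCF7. Without replicate 3 the E2F7 flank turned from -1.93 to 1.47 points against the pool median and from -0.82 to 2.06 points against no motif. None of the 34 E2F7 sites tested in nuc against the pool median passed. The sites with the largest differences of like sign in every library were 303, at 43.8%, 48.2% and 38.9% against a pool median of 53.1% ± 2.67 (adjusted p = 0.0819), and 313, at 49.2%, 57.7% and 54.1% against 60.4% ± 5.45 (adjusted p = 0.178). Among all nuc sites 9.21% of 760 passed. Against no motif, neither E2F7 nor GMEB2 passed in the nuc flank, where 34.8% of 23 constructs did, or at any of their 34 sites in nuc, where 10.7% of 782 sites did.

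Within the nuc window, E2F7 sites differed in depth. The site at 198 was lowest, at 17.5%, 12.1% and 24.6%, and lay at -14.6 ± 5.60 points (SD, n = 3) from a line between positions 157 and 213. The sites at 177 and 180 lay at -11.2 ± 4.97 and -12.4 ± 1.44 points, and those at 190 and 202 at -5.86 ± 6.94 and -2.68 ± 4.89 points. The site at 198 corresponds to 149 in the unphased class, the lowest of the E2F7 window sites there too.

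In the non_nuc context the same window is open upstream and closes downstream. E2F7 read 72.0%, 74.4% and 66.5% at 177, and 43.3%, 43.9% and 40.4% at 198. The site at 202 read 55.9%, 54.7% and 58.4%, so 198 was lower than both of its neighbours in each of the 3 libraries. It lay at -12.4 ± 1.45 points (SD, n = 3) from the line between 157 and 213, the site at 190 at -2.88 ± 3.25 points, and 177, 180 and 202 at 2.66 ± 1.47, 2.70 ± 2.27 and 3.92 ± 4.15 points. By its mean, the corresponding site was the lowest of the E2F7 window relative to the line in each of the 3 contexts, at -10.7 ± 1.18 points (SD, n = 2) in the unphased class. The order did not hold in every library. In nuc, 177 lay lower in replicate 2 (-16.6 against -14.2 points), and 177 and 180 lay lower in replicate 3 (-10.3 and -13.7 against -9.14 points). In unphased replicate 2 the site at 131 lay at -9.93 against -9.82 points. The level at 198 was not low among constructs: E2F7 was the most open of the 6 constructs with a site there in both nuc (18.1% ± 6.27) and non_nuc (42.5% ± 1.85; SD, n = 3). These per-site values are a description.

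Flank and window levels of E2F7 in non_nuc did not pass against either reference. Its flank read 67.3%, 64.6% and 61.6%, against 65.7% ± 2.20 (SD, n = 3) for the pool median, at -0.41, -1.60 and -1.78 points from it (adjusted p = 0.290). Its window read 59.6%, 60.1% and 58.0%, above the pool median by 2.84, 2.46 and 1.52 points (adjusted p = 0.235), in a comparison where 54.2% of 24 constructs passed. With the window narrowed, the difference from the pool median was -1.25 points. Against no motif, with 1 window site at 67.1% ± 4.66, the window difference was -7.88 points (adjusted p = 0.175; 60.9% of 23 passed, all lower). It passed without replicate 1 of no motif (-10.5 points, adjusted p = 0.0113) and with the narrower window (-17.3 points, adjusted p = 0.00635). The narrower window drops the upstream E2F7 sites at 177 and 180. It leaves those at 190 and 198, both further down the fall than the no-motif site at 189.

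Relative to the line, both constructs were lower than no motif in non_nuc, as were most constructs of the class. The window of E2F7 lay at -3.25, -1.44 and 1.07 points from the line and that of GMEB2 at 6.07, -0.42 and 1.43 points. The 1 window site without a motif, at 189, lay at 13.7, 8.40 and 13.5 points. E2F7 differed from it by -13.1 points (adjusted p = 0.000205) and GMEB2 by -9.50 points (adjusted p = 0.00587), in a comparison where 87% of 23 constructs passed, all lower. The median difference over the 23 was -15.7 points. The GMEB2 call was lost without replicate 1 of no motif (adjusted p = 0.0548). In nuc the differences were -2.95 points for each construct and did not pass (adjusted p = 0.203 and 0.297), where 43.5% of 23 did.

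GMEB2 had a lower flank in the non_nuc context. It read 60.6%, 54.1% and 57.4%, below the pool median in each library at -7.10, -12.1 and -5.99 points, a mean of -8.39 ± 3.25 points (SD, n = 3; log2 M -0.50 ± 0.09 SE, adjusted p = 0.0214). In this comparison 50% of 24 constructs passed, 29.2% lower and 20.8% higher. Without replicate 1 the adjusted p of GMEB2 was 0.124 at -9.04 points. The construct without a motif was among the lower calls, at -6.12, -5.40 and -8.12 points from the median of its own pool (adjusted p = 0.0147). Against no motif, whose flank read 60.5% ± 5.39, GMEB2 differed by -3.20 points and did not pass (adjusted p = 0.727), in a comparison where 21.7% of 23 constructs did. Its window read 65.0%, 51.5% and 55.0%, on both sides of the pool median of 57.0% ± 0.57.

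A single position carried the largest loss. At 150, which is 26 bp before the window, GMEB2 in non_nuc read 61.1%, 56.3% and 56.3%, while the sites at 148 read 85.0%, 78.3% and 87.5% and at 157 read 83.4%, 75.7% and 79.7%. The pool median at 150 was 82.7% ± 6.32 (SD, n = 3). GMEB2 was lower, at -24.8 ± 5.34 points (log2 M -1.80 ± 0.22 SE, adjusted p = 0.0136), with adjusted p from 0.00526 to 0.0450 when each library was left out. It was lower than no motif too, at -22.7 points (adjusted p = 0.00552, 0.120 without replicate 3 of no motif). It ranked 24 of 24 constructs at this site, and the only 1 of 23 constructs tested that passed against no motif there.

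Relative to the mean of its neighbours at 148 and 157, position 150 of GMEB2 lay at -23.1, -20.7 and -27.3 points. The next lowest construct in the class, CUX1, lay at -2.42 ± 0.72 points (SD, n = 3). In nuc, GMEB2 at 150 read 53.1%, 44.1% and 61.5%, against 65.1%, 59.9% and 69.2% at 148 and 48.2%, 48.4% and 53.4% at 157. There it lay at -4.46 ± 5.24 points from the mean of the neighbours, with only TRP53 lower in this class at -10.5 ± 0.98 points, and did not pass against the pool median (adjusted p = 0.262). E2F7 had no such loss in either context. Whether the GMEB2 construct differs from the others in sequence near 150 was not tested, as construct sequences were not used here. Without position 150 the non_nuc flank of GMEB2 was still lower than the pool median, at -5.76 points (adjusted p = 0.0360).

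Other GMEB2 sites were close to the threshold. In non_nuc, position 236 read 28.0%, 17.6% and 21.4%, against 34.6% ± 1.75 for the pool median (adjusted p = 0.0451). These made 2 of 33 GMEB2 sites, where 8.85% of 757 sites of the class passed. In nuc, position 326 read 57.6%, 58.1% and 53.7%, against 45.1% ± 1.05 (11.3 points higher, adjusted p = 0.0493). Both calls were lost without any 1 library of the pool. At the far upstream site 33 in non_nuc, both constructs exceeded no motif, E2F7 by 24.3 points (adjusted p = 0.0125) and GMEB2 by 26.4 points (adjusted p = 0.00517). The site read 41.4%, 42.8% and 22.0% without a motif, and neither call held without its replicate 3. At that site 30.4% of 23 constructs were higher, in a comparison where 8.84% of 690 sites passed.

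In the nuc flank, GMEB2 was below its pool median in every library, at -5.02, -5.86 and -4.91 points, which did not pass (-5.26 ± 0.52 points, SD, n = 3; adjusted p = 0.1003). The flank of GMEB2 was thus below its pool median in all 8 libraries that held it over the 3 contexts, and passed in non_nuc only. A flank below the pool median was not particular to GMEB2. The construct without a motif lay at -6.55 points from the median of its own pool in non_nuc (adjusted p = 0.0147). In nuc it lay at 0.64, -12.6 and -5.15 points (adjusted p = 0.205).

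The contexts were compared directly by the difference of the within-library differences. Neither construct passed. E2F7 minus its pool median differed between nuc and non_nuc by -0.67 points in the flank (adjusted p = 0.862) and by 0.76 points in the window (adjusted p = 0.888). GMEB2 minus its pool median differed by 3.13 points in the flank (adjusted p = 0.446) and by -3.66 points in the window (adjusted p = 0.633). Among 24 constructs present in both contexts 12.5% passed in the flank and 25% in the window. Over the amplicon 0 of 24 passed in limma, with 1 at an unadjusted p under 0.05.

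Profiles were compared as a description, by Pearson's r over 14 unphased positions of the mean difference from the pool at each position, with no test. E2F3 and E2F4, from different pools, were each other's most alike construct among those compared (r = 0.958). Next to E2F4 were MTF1 (r = 0.951) and TRP53 (r = 0.944), and next to E2F3 were MTF1 (r = 0.918) and REST (r = 0.903). E2F8 was most like SP2 (r = 0.894), SRF (r = 0.874) and NRF1 (r = 0.872). GMEB2 was most like SOX2_r (r = 0.763), CREB3 (r = 0.745), which shared its pool, and CREB1 (r = 0.735). MYBL2 was most like SOX2 (r = 0.770), OTX2 (r = 0.701) and TCF3 (r = 0.592).

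In nuc and non_nuc the correlations ran over 30 to 34 positions. In nuc, E2F7 was most like BHLHE40 (r = 0.668), TCF7 (r = 0.456), which shared its pool, and CTCF_r (r = 0.378). In non_nuc it was most like TCF7 (r = 0.617), OctSox_r (r = 0.614) and the construct without a motif (r = 0.519). GMEB2 was most like ZFP423 (r = 0.792), ATF4 (r = 0.778) and the construct without a motif (r = 0.705) in nuc. In non_nuc it was most like ATF4 (r = 0.690), the construct without a motif (r = 0.614) and CUX1 (r = 0.551).

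The set was placed beside 17 other unphased motifs of cell-cycle and CpG-rich promoters. Against no motif, 4 of the 17 flanks were higher (BANP, SP2, ZFP143 and ZFX) and 1 was lower (CREB1), against 0 higher and 1 lower of the 6. In the window 7 of the 17 were higher and 2 lower, against 2 higher and 1 lower of the 6. Of all 121 constructs, 14.9% were higher and 23.1% lower in the flank, and 23.1% were higher and 25.6% lower in the window. Median window differences were 4.89 points for the 17, 6.13 points for the 6 and 0.57 points for all 121 constructs. In the flank these medians were 3.57, 2.75 and 0.09 points. The list and the set were chosen with earlier results known, and the counts are given as a description.

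The E2F windows were within the range of this list. The promoter motif of SP2 had a window of 60.2% ± 3.10 (SD, n = 2), above each E2F construct, and NRF1, a palindromic CpG-containing motif, read 48.5% ± 0.28. ZFP143 had a window of 27.2% ± 0.90 between flanks of 53.1% ± 0.86, a window at -28.5 points from the line, against -6.43 points for E2F7. GMEB1, the relative of GMEB2, read 44.8% ± 1.57 in the flank and 44.8% ± 2.58 in the window, neither past the threshold against no motif (adjusted p = 0.393 and 0.245). MYBL1, the relative of MYBL2, had a higher window than no motif, at 48.6% ± 1.38 (adjusted p = 0.0227), as did 23.1% of 121 constructs. Against its own pool median the MYBL1 window differed by 0.26 points (adjusted p = 0.970). LIN54, the DNA-binding subunit of MuvB, lies outside the rule and was chosen after its values were seen. Its flank read 41.6% and 39.4% and its window 44.5% and 43.4%, with a flank at -4.64 and -6.48 points from its pool median (adjusted p = 0.0937).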

How the data were processed

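GCH methylation was measured by amplicon NOMe-seq in 115 libraries. Per the file headers, the authors deposited for every GCH cytosine, by construct and position, the methylated fraction of its reads, without read numbers. The submitters' processing notes name Trimmomatic 0.32. How reads were aligned, called and filtered, and against which build, was not given in the sources used here. Of 10013 GCH values in the 3 classes, 452 were missing. Files of CpG methylation were not used.

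Levels are means over sites that no library of the pool lacked. M-values were log2((f + 0.01)/(1 − f + 0.01)). Tests used moderated fits in limma 3.58.1 (R 4.3.3), with p adjusted by Benjamini-Hochberg over all constructs, pairs or sites of a class, at an adjusted p under 0.05. In many fits the moderated standard error was the same for all constructs. Tables were made with Python 3.11.15, numpy 2.4.6 and pandas 2.3.3. The fits were also run on simulated levels with known shifts. Differences between libraries were set smaller there than in these data, so that run cannot judge the comparisons between libraries. Constructs with identical values in 2 pools were counted once. The members, lists and rules were chosen with earlier results of these data known. Named were every construct of the set, its references, its 3 most alike constructs, and single sites past the threshold, or otherwise the 2 with the largest difference of like sign in every library. The design set 10 percentage points as a large difference. The line, the single-site tests against no motif and the partner, and the limit of 14 shared positions in place of 15 for likeness were chosen after seeing the data. Alternatives were scale, pseudocount, sites, window and flank width, the pool median, left-out libraries and the replicate block.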

Additional observations from a re-analysis of the deposited data

How the results depend on the processing

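Replicate numbers showed no steady pairing of libraries. Same-numbered libraries correlated in their deviations at -0.355 to 0.429 in the unphased class, -0.0678 to 0.255 in nuc and -0.278 to -0.0136 in non_nuc. With 2 or 3 libraries per pool, these values cannot decide whether same-numbered libraries were handled together. With the replicate block the unphased counts of constructs past the threshold against no motif went from 59 to 27 in the window and from 34 to 21 over the amplicon, and the nuc amplicon from 3 to 0; the GMEB2 window had an adjusted p of 0.0675 and the E2F8 window one of 0.05001. The cause of the changes below was not tested. With left-out libraries, E2F3 against no motif ran from -0.98 to 4.11 points in the unphased flank. E2F7 in nuc ran from -3.87 to 2.06 points in the flank against no motif, -4.24 to 1.47 against the pool median and -2.12 to 3.26 in the window against no motif. Its nuc difference minus its non_nuc difference ran from -2.98 to 2.74 points in the flank and -0.59 to 3.04 in the window, and that of GMEB2 from -6.81 to 0.36 in the window. The GMEB2 window against the pool median ran from -3.80 to 3.38 points in non_nuc and -5.65 to 0.34 in unphased. MYBL2 against the pool median ran from -3.70 to 0.49 in the flank and -1.24 to 1.83 in the window. Against the line, E2F8 ran from -1.65 to 0.0525, GMEB2 from -3.97 to 0.34 and MYBL2 from -0.49 to 0.89 points relative to no motif.

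Counts past the threshold over left-out libraries ran as follows in the unphased class against no motif: 13 to 67 in the window, 5 to 51 in the flank, 0 to 44 over the amplicon, 10 to 39 against the line and 30 to 638 for single sites. Pairs with a partner ran from 4 to 7 in the flank and 4 to 8 in the window. In non_nuc they ran from 5 to 10 in the flank and 27 to 69 for single sites against no motif, and from 5 to 14 in the flank, 6 to 15 in the window and 0 to 2 over the amplicon against the pool median. In nuc they ran from 0 to 3 over the amplicon and 49 to 104 for single sites against no motif, and from 3 to 9 in the window and 42 to 59 for single sites against the pool median. Windows past the threshold between nuc and non_nuc ran from 3 to 8.

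With a flank of 25 bp, the E2F7 flank was 3.51 points against no motif and 0.60 against the pool median in nuc, and 2.36 for nuc against non_nuc; MYBL2 was 0.77 points against the unphased pool median. That flank gave 30 in place of 9 unphased constructs against the pool median, 10 in place of 6 in nuc and 5 in place of 3 for nuc against non_nuc. Without position 150, chosen after seeing the data, E2F7 was 0.11 points against no motif in the nuc flank and 0.39 for nuc against non_nuc, and GMEB2 was 0.0527 points against no motif in non_nuc. With the narrower window, E2F7 was -1.25 points against the pool median in non_nuc and -3.42 against no motif in nuc, and GMEB2 was 0.51 against the pool median in nuc. The count of unphased windows against the pool median then fell from 32 to 6, that of pairs in the window from 8 to 5, and that of nuc against non_nuc from 6 to 3. MYBL2 was 2.16 points against its partner relative to the line. With the pool median of the other constructs, E2F7 was -0.42 points in the window for nuc against non_nuc, where 3 constructs passed. The unphased counts became 45 in the flank, 54 in the window and 22 in place of 14 over the amplicon, and the non_nuc amplicon count became 2. With shared positions alone, amplicon counts against the pool median became 7 in unphased, 6 in non_nuc and 1 in nuc, that of the nuc class against no motif became 0, and that of pairs 4 in place of 2. The plain fraction gave 51 unphased windows and 5 in place of 9 nuc windows against the pool median, and 4 pairs in the window. A stretch of low sites is shared by constructs at 39 to 63 in nuc and at 109 to 133 in non_nuc. No such site lies within 40 bp of a window, so flank and window levels do not hold them. Amplicon levels hold them, and leaving them out was not run. Using sites with a value in any library changed no value. Without read counts, depth cannot be weighed in any of these values.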
